A study of Mus musculus with 8 samples.

Results

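The nuclear genes for the subunits of the mitochondrial respiratory chain were followed in microglia, the resident macrophages of the brain, from white and grey matter of young and old mice. Rows of the count table were taken whose symbols start with Ndufa, Ndufb, Ndufc, Ndufs, Ndufv, Uqcr, Cox4 to Cox8 or Atp5, or are Sdha, Sdhb, Sdhc, Sdhd or Cyc1. Of 101 such symbols, 7 pseudogene symbols with -ps were left out, as were Cox7b2 and Cox8c, which had a count of 0 in all 8 libraries and so missed the minimum summed count of 10. The remaining 92 genes, of 51810 in the table, comprised 36 subunit genes of complex I, 4 of complex II, 9 of complex III, 17 of complex IV and 15 of complex V, with 8 assembly factors of complex I (Ndufaf) and 3 genes kept apart (Cox7a2l, Atp5s and Atp5sl). A filter on low counts, applied to the whole table, kept 89 of the 92 (not Ndufaf6, Cox7a1 or Atp5k) and 16237 genes in all.

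The mice were wild type, aged 4 or 21 months, and no other allele or agent is named. White matter, labelled corpus callosum, and grey matter were sampled at each age, which gives 4 groups of 2 libraries. The region label names the corpus callosum for the grey matter samples as well, so the split rests on the tissue label and the titles. Cells were freed of myelin on a Percoll gradient and pulled out with CD11b microbeads, a surface protein that other myeloid cells carry too, and their polyadenylated RNA was sequenced. Whether a group's 2 libraries stem from different animals is not stated, so p-values measure only the spread between these libraries, which may be technical.

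The respiratory chain passes electrons from NADH (complex I) and succinate (complex II) through complex III to oxygen at complex IV, and complex V, the ATP synthase, uses the resulting proton gradient to make ATP. Most subunits are encoded in the nucleus and a few core ones in mitochondrial DNA. Several complex IV subunits and some others exist as paired isoform genes, of which one is active in most tissues and another in heart and skeletal muscle, lung or germ cells. Cox6a1, the widely expressed isoform, and Cox6a2, the isoform known from heart and skeletal muscle and from some interneurons, are such a pair.

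Library totals ran from 3273258 to 6315782 counts, and the 92 genes took 0.18% to 0.302% of them. Values below are in CPM, the usual counts-per-million unit, computed on library sizes scaled with edgeR's TMM factors and not divided by gene length, so levels of different genes are not compared. Overlap between libraries was judged on these scaled values and can differ on library totals alone. The 37 mitochondrially encoded genes of the table were at 0 in every library, so the mitochondrial part of each complex was not measured. The first white matter library at 4 months stood apart: 12 oligodendrocyte markers summed to 64873 CPM there against 200 to 816 CPM in the other 7, 12 microglial markers to 3485 CPM against 13625 to 20959 CPM, and transcripts resembling ribosomal RNA took 38.8% of its counts against 6.78% to 20.7%. Its log CPM correlated with those of the other libraries at 0.67 to 0.76 across genes. The medians by complex and the fold changes of single genes that rest on it are therefore also given without it, while counts of genes without overlap, the DESeq2 calls and the calls without a filter on low counts include it. The first grey matter library at 4 months had the highest sum of 6 red blood cell markers, 26079 CPM against 185 to 6932 CPM elsewhere.

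The sum over all 92 genes was 4915 CPM in the first and 1793 CPM in the second white matter library at 4 months, 2562 and 1640 CPM in grey matter at 4 months, 2058 and 2416 CPM in white matter at 21 months, and 1713 and 1889 CPM in grey matter at 21 months. The young groups thus each held 1 high and 1 low library, while at 21 months both white matter libraries lay above both grey matter libraries. This separation depended on the TMM scaling. As a percentage of all counts the old regions overlapped, at 0.205% and 0.277% in white and 0.19% and 0.207% in grey matter. In these bulk samples, fewer cells of a type and less RNA per cell cannot be told apart. The high library was the first of each young group. These libraries also had the higher neuronal marker sums of 12 genes (115 and 72.9 CPM against 9.53 to 22.6 CPM in the other 6). Red blood cell marker sums split the libraries in the same way (6932 and 26079 CPM against 185 to 2639 CPM). So did transcripts resembling ribosomal RNA (38.8% and 20.7% of counts against 6.78% to 14.2%). The part of other cells in the sums of the chain genes was not tested.

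By complex, the sums of complex I were 454 and 534 CPM in white and 391 and 411 CPM in grey matter at 21 months, those of complex IV 303 and 319 against 194 and 222 CPM, and those of complex V 795 and 993 against 672 and 735 CPM. For these 3 complexes the regions did not overlap. Complex III barely separated, at 136.24 and 159.42 against 130.73 and 136.21 CPM, and complex II overlapped, at 207 and 257 against 177 and 224 CPM. On library totals alone, without the TMM factors, complexes III and V overlapped too. Complex I then barely separated, and complex IV still did not overlap. The assembly factors of complex I, which help build the complex and do not stay in it, summed to 51.3 and 50.2 CPM in white and 56.3 and 48.3 CPM in grey matter, also with overlap. In the first white matter library at 4 months the 5 complexes stood at 1323, 493, 455, 705 and 1716 CPM from I to V, above every other library in each.

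**Figure D1:**
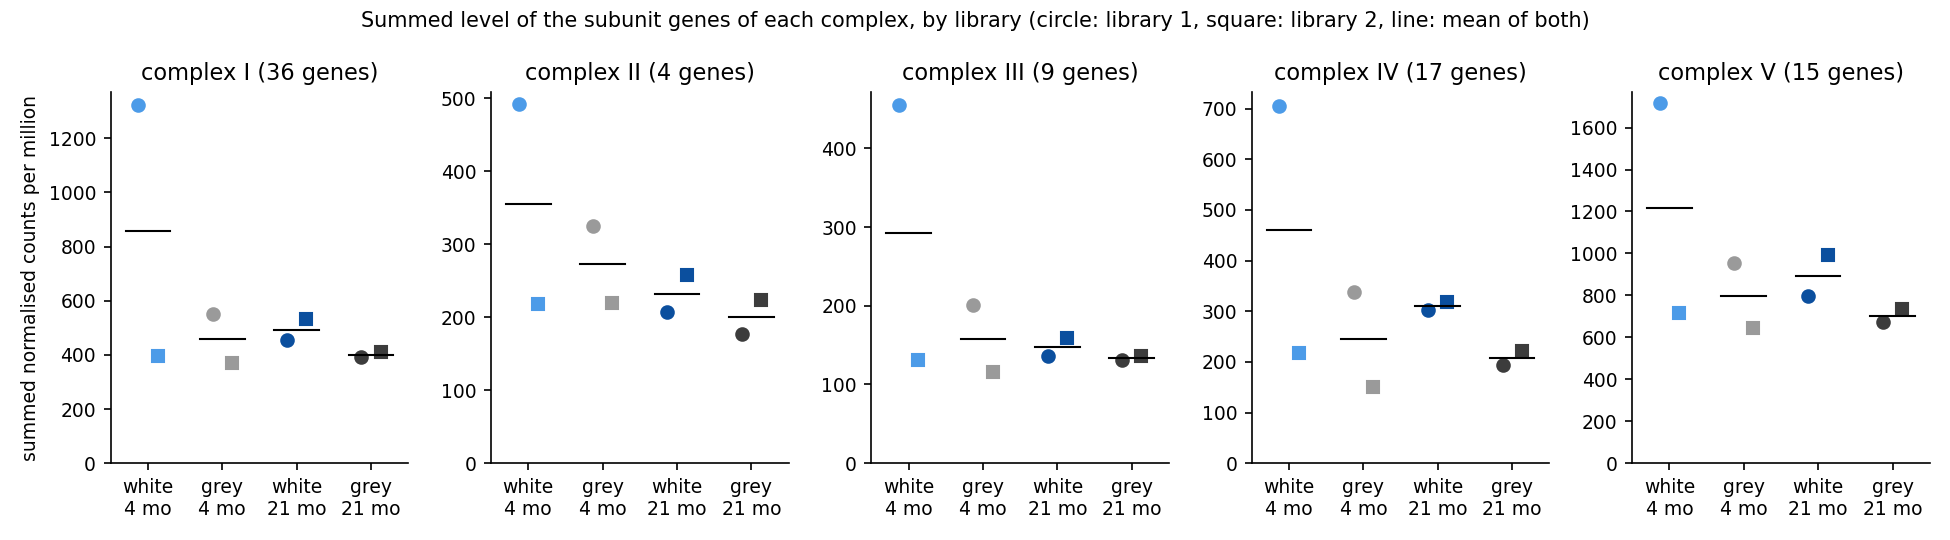
Summed CPM of the subunit genes of complexes I to V (linear axes from 0) in each library, grouped by region and age, with a line at the mean of the 2 libraries. The first white matter library at 4 months is the highest point in all 5 panels, and at 21 months white lies above grey matter without overlap in complexes I, III, IV and V. In complexes III and V this separation depended on the TMM scaling.

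White and grey matter were compared at 21 months to see which chain genes differ between the regions of the old brain. In edgeR's quasi-likelihood fit of all 8 libraries no gene of 16237 reached a Benjamini-Hochberg adjusted p under 0.05 (0%), and none of the 89 did. At an unadjusted p under 0.05 there were 381 genes, of which 1 was a chain gene, Cox6a2. Of the 89, 65 had a log2 fold change (white over grey) above 0, with a median of 0.22 beside 0.02 over all genes tested. Without a filter on low counts the median over the 92 was 0.23, with 68 above 0.

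The medians at 21 months were 0.29 for complex I (28 of 36 above 0), 0.21 for complex II (4 of 4), 0.29 for complex III (7 of 9), 0.44 for complex IV (11 of 16) and 0.23 for complex V (11 of 14), while the complex I assembly factors lay at -0.05 (2 of 7). In 32 of the 89 genes both white matter libraries exceeded both grey matter libraries, against a background of 20.9% of all genes tested, and 9 lay the other way, against 19.5%. The 32 included 16 of 36 in complex I, 8 of 16 in complex IV, 3 of 9 in complex III, 3 of 14 in complex V, 1 of 4 in complex II and the assembly factor Ndufaf8. The genes of the chain are not replicates of one another, and no test was made of these counts. Several marker lists also separated the regions at 21 months. Neutrophil markers (11 genes) summed to 997 and 557 against 2990 and 2698 CPM, and monocyte markers (8 genes) to 200 and 174 against 557 and 405 CPM. Border-associated macrophage markers (8 genes) summed to 34.3 and 70.8 against 166 and 125 CPM, and astrocyte markers (10 genes) to 85.1 and 156 against 239 and 208 CPM. Oligodendrocyte markers lay higher in white matter without overlap, at 342 and 325 against 227 and 324 CPM, while microglial markers overlapped, at 13625 and 13782 against 13721 and 16467 CPM. The part of other cells in the regional difference was not tested. Without the first young white matter library the median was 0.21, with 64 of 89 above 0 and no chain gene called.

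**Figure D2:**
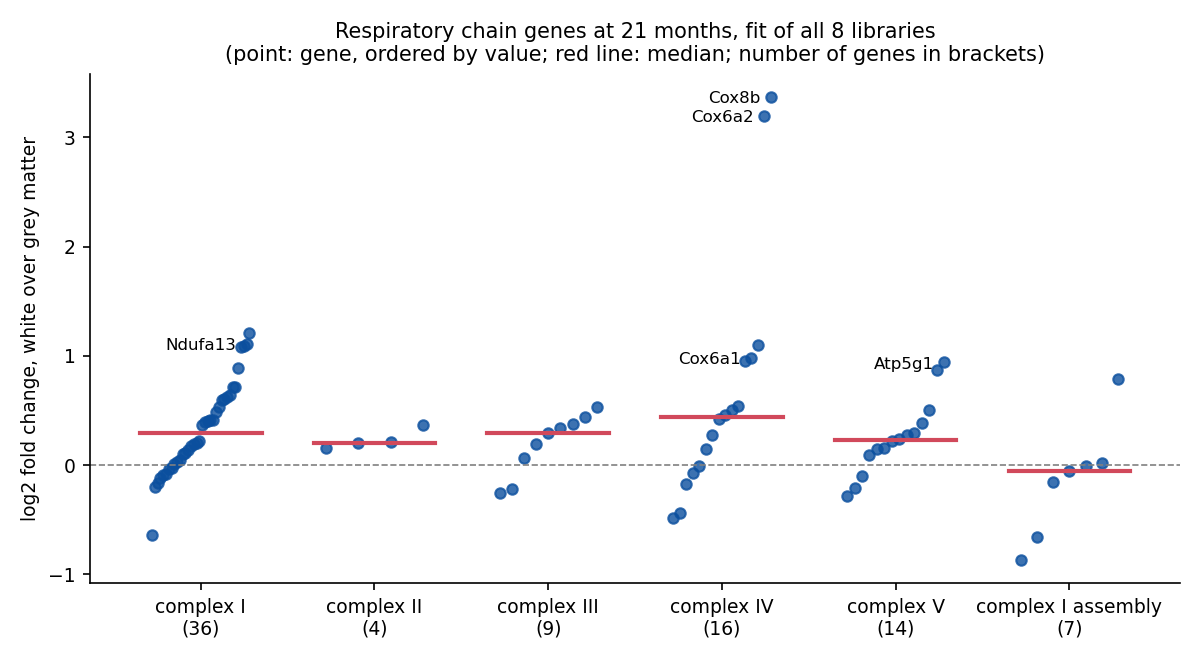
Log2 fold change of white over grey matter at 21 months for each chain gene that passed the filter, from the fit of all 8 libraries, by complex (points, ordered by value within a complex; red lines, medians). Complex IV has the highest median, 0.44, and holds the 2 highest points, Cox8b and Cox6a2.

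When only the 4 libraries at 21 months were fitted, 232 of 14717 genes were called (1.58%), and 2 of the 82 chain genes tested were among them: Cox6a2 and Cox6a1. Both rose in white matter, by 3.14 ± 0.55 and 0.97 ± 0.20 on the log2 scale (SE, edgeR adjusted p = 0.0190 and 0.0387). A further 8 had an unadjusted p under 0.05, all higher in white matter: Cox4i1, Cox6b1, Cox7b and Cox8a of complex IV, Ndufa13 and Ndufv2 of complex I, and Atp5b and Atp5g1 of complex V. That made 10 of 82 chain genes, a share near that of all genes, 1675 of 14717. Of those 1675, 965 were higher in white matter. The 82 genes had a median of 0.21, with 59 above 0.

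Cox6a1 and Cox6a2 encode alternative forms of one small complex IV subunit, and their messages are told apart by base differences spread along the coding sequence. The coding parts of the GENCODE mouse transcripts, 336 bases for Cox6a1 and 291 for Cox6a2, shared 181 of 282 aligned bases (64.2%), with no identical run longer than 12 bases. The third coding exon is shown because it has the same length in both, 81 bases, with the 22 bases that differ in capitals. It lies at chr5:115345846-115345926 for Cox6a1 and chr7:128205732-128205812 for Cox6a2 in GRCm38, both on the minus strand. The build that the authors counted on is not given in the sources used here.
Cox6a1: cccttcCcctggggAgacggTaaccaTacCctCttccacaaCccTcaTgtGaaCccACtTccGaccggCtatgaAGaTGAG
Cox6a2: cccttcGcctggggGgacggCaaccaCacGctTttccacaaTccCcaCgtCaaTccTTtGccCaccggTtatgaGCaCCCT

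Cox6a2 stood at 10.9 and 11.7 CPM in white matter at 21 months and at 1.78 and 0.558 CPM in grey matter. The young libraries had 1.45 and 1.00 CPM in white and 0.349 and 0.549 CPM in grey matter. Both old white matter libraries were thus high and the other 6 low, with a mean of 11.3 ± 0.56 CPM (SD, n = 2) against 1.17 ± 0.87 CPM in old grey matter and no overlap. The counts behind them were 46 and 47 in old white matter and 2 to 9 elsewhere. In the fit of all 8 libraries its log2 fold change at 21 months was 3.20 ± 0.75 (edgeR adjusted p = 1). Without the first young white matter library it was 3.18 ± 0.71 (edgeR adjusted p = 0.220). With limma's voom with library quality weights it was 3.19 with an adjusted p of 0.0399, where 0.696% of all genes were called.

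Within white matter Cox6a2 was also higher at 21 than at 4 months, by 3.19 ± 0.77 (edgeR adjusted p = 0.615), a comparison that shares the old white matter libraries with the one above. DESeq2 called it there, at 3.22 with an adjusted p of 0.0482 and 2.95% of the genes with an adjusted p called. Without the first white matter library at 4 months the value was 3.44 ± 0.97 (edgeR adjusted p = 1). In grey matter the age difference was 1.37 ± 0.82 on 2 to 9 counts a library, and the difference between the 2 age changes was 1.81 ± 1.17 with and 2.04 ± 1.303 without the first young white matter library (edgeR adjusted p = 1 for all 3).

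Cox6a1 stood at 58.9 and 67.8 CPM in white and 33.9 and 30.1 CPM in grey matter at 21 months. Its means were 63.3 ± 6.29 and 32.0 ± 2.63 CPM (SD, n = 2), with no overlap. At 4 months it was at 219 and 32.9 CPM in white and 69.4 and 22.7 CPM in grey matter, so the young regions overlapped and the first library of each was the high one. Its region difference at 4 months was 1.45 ± 0.85 with all libraries and -0.46 ± 0.58 without the first white matter library (edgeR adjusted p = 0.676 and 0.932).

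As a share of the summed counts of the pair, not corrected for transcript length, Cox6a2 took 15.6% (95% exact binomial interval 11.7% to 20.3%) and 14.7% (11% to 19.1%) in old white matter. In old grey matter the shares were 5% (2.31% to 9.28%) and 1.82% (0.221% to 6.41%). The young libraries had 0.659% and 2.96% in white and 0.5% and 2.36% in grey matter. The intervals of both old white matter libraries lay above those of the other 6. They cover counting error only. Of the marker lists, the 12 neuronal markers summed to 11.4 and 14.4 CPM in old white and 13.9 and 22.6 CPM in old grey matter, with Pvalb at 0 in all 8 libraries. Pericyte and smooth muscle markers (11 genes) summed to 780 and 1430 against 1121 and 1319 CPM. Choroid plexus and ependymal markers (8 genes) summed to 305 CPM in the first and 9398 CPM in the second old white matter library. The part of other cells in the Cox6a2 difference was not tested.

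**Figure D3:**
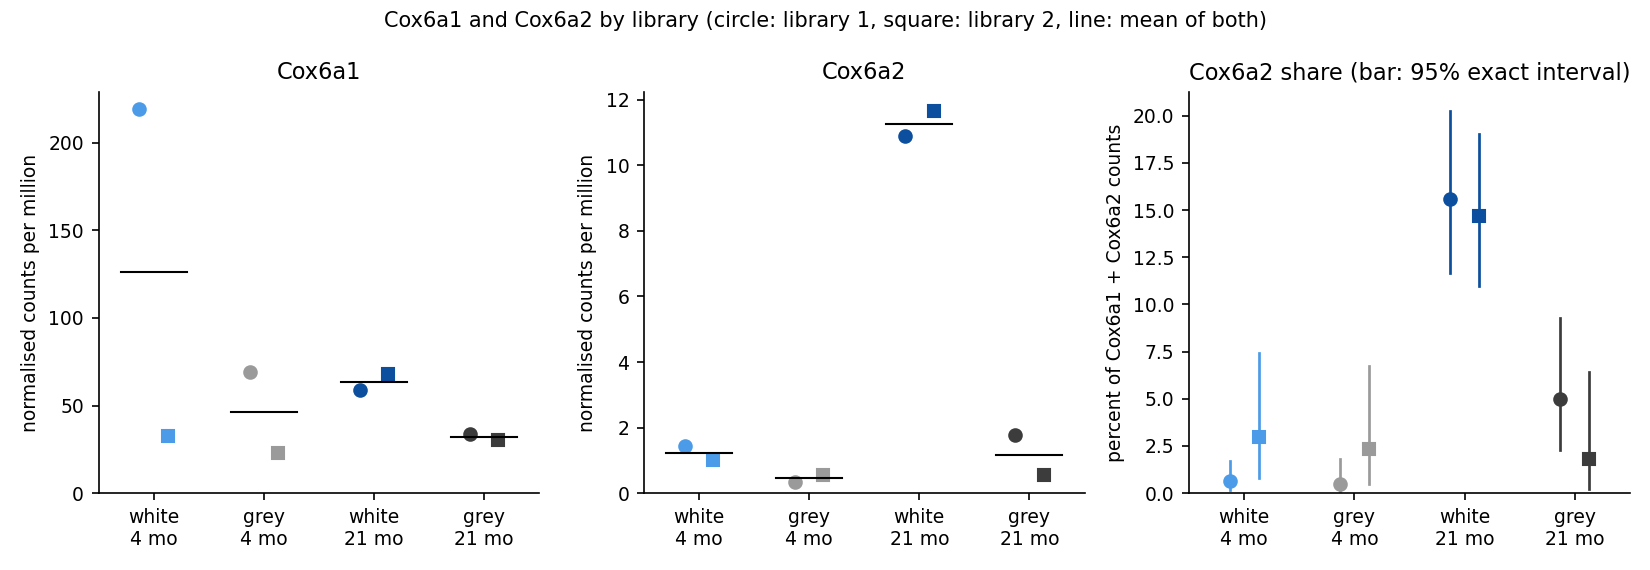
Cox6a1 and Cox6a2 in CPM and the Cox6a2 share of the counts of both genes, in each library (linear axes from 0, lines at the means of 2 libraries, bars in the right panel the 95% exact binomial interval). Cox6a2 and its share are high in both white matter libraries at 21 months, at 10.9 and 11.7 CPM and 15.6% and 14.7%.

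The other widely expressed complex IV subunits were mixed at 21 months, with some separating the regions and some overlapping. Cox4i1 was at 73.6 and 72.0 against 51.1 and 57.8 CPM (log2 fold change 0.41 ± 0.17 with the 21-month libraries alone, edgeR adjusted p = 0.401). Cox7b was at 9.70 and 13.9 against 4.36 and 6.70 CPM. Cox8a was at 64.8 and 81.2 against 47.1 and 59.2 CPM. None of these 3 passed the test, although the regions did not overlap in any of them. On library totals alone, without the TMM factors, Cox8a overlapped. Cox5a overlapped, at 6.39 and 3.72 against 3.17 and 7.54 CPM (-0.05 ± 0.56, edgeR adjusted p = 0.989). Cox7a2 overlapped at 10.4 and 4.72 against 4.56 and 9.21 CPM (0.16 ± 0.52, edgeR adjusted p = 0.960). Ndufa4 overlapped at 4.02 and 9.44 against 4.95 and 8.65 CPM (-0.01 ± 0.51, edgeR adjusted p = 0.998). In all, 8 of the 16 complex IV genes tested were higher in white matter without overlap and 1 lower.

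The isoform genes other than Cox6a2 were low, and some of them varied with particular libraries. Cox8b, the heart and skeletal muscle form of subunit 8, was at 1.09 and 3.26 CPM in young white matter, 0 in both young grey, 0 and 5.71 CPM in old white and 0 and 0.558 CPM in old grey matter. Its 2 highest libraries, the second of each white matter group, were also the 2 with the highest sums of choroid plexus and ependymal markers, 5540 and 9398 CPM against 18.5 to 2108 CPM in the others. The part of those cells in Cox8b was not tested. Without a filter on low counts, Cox8b and Atp5g1 were called higher in white matter at 4 months (edgeR adjusted p = 0.0416 and 0.0146), where 3.39% of all genes were called, and at its counts of 0 in both grey matter libraries the fold of Cox8b has no fixed size.

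Ndufa4l2, a paralog of the complex IV subunit gene Ndufa4 that is known to respond to low oxygen, was at 0.727 and 2.01 CPM in young white and 2.27 and 4.21 CPM in young grey matter. At 21 months it was at 4.97 and 5.96 CPM in white and 7.33 and 7.54 CPM in grey matter. The 4 groups did not overlap, and it was the 1 chain gene lower in white matter at both ages in this sense. On library totals alone the young regions overlapped. No comparison of Ndufa4l2 passed the test (21 against 4 months, 1.93 ± 0.71 in white and 1.19 ± 0.66 in grey matter, edgeR adjusted p = 0.615 and 1). Without the first young white matter library the value in white matter was 1.42 ± 0.75 (adjusted p = 1). Cox4i2, the isoform of Cox4i1 known from lung, lay at 0 and 1.00 CPM in young white, 0.698 and 1.28 CPM in young grey, 2.37 and 1.74 CPM in old white, and 2.18 and 3.63 CPM in old grey matter. Sums of the 11 pericyte and smooth muscle markers were 11.3 and 604, 155 and 943, 780 and 1430, and 1121 and 1319 CPM in the same order, lowest in the library where Ndufa4l2 and Cox4i2 were lowest. Their part in both genes was not tested.

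Cox7a1, the muscle form of subunit 7a, was at 0 and 1.76 CPM in young white, 0 and 0.183 CPM in young grey, 1.42 and 1.74 CPM in old white, and 0.198 and 0.279 CPM in old grey matter, on at most 7 counts a library, too few to be tested. Cox6b2, known from testis, was at 7.995 and 4.26 CPM in young white, 3.66 and 0.914 CPM in young grey, 0.71 and 2.48 CPM in old white, and 1.39 and 2.23 CPM in old grey matter. White matter lay higher at 4 months than at 21 months without overlap, at -1.92 ± 0.97 (21 over 4 months, edgeR adjusted p = 0.625) and -1.43 ± 1.11 without the first young library (adjusted p = 1).

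**Figure D4:**
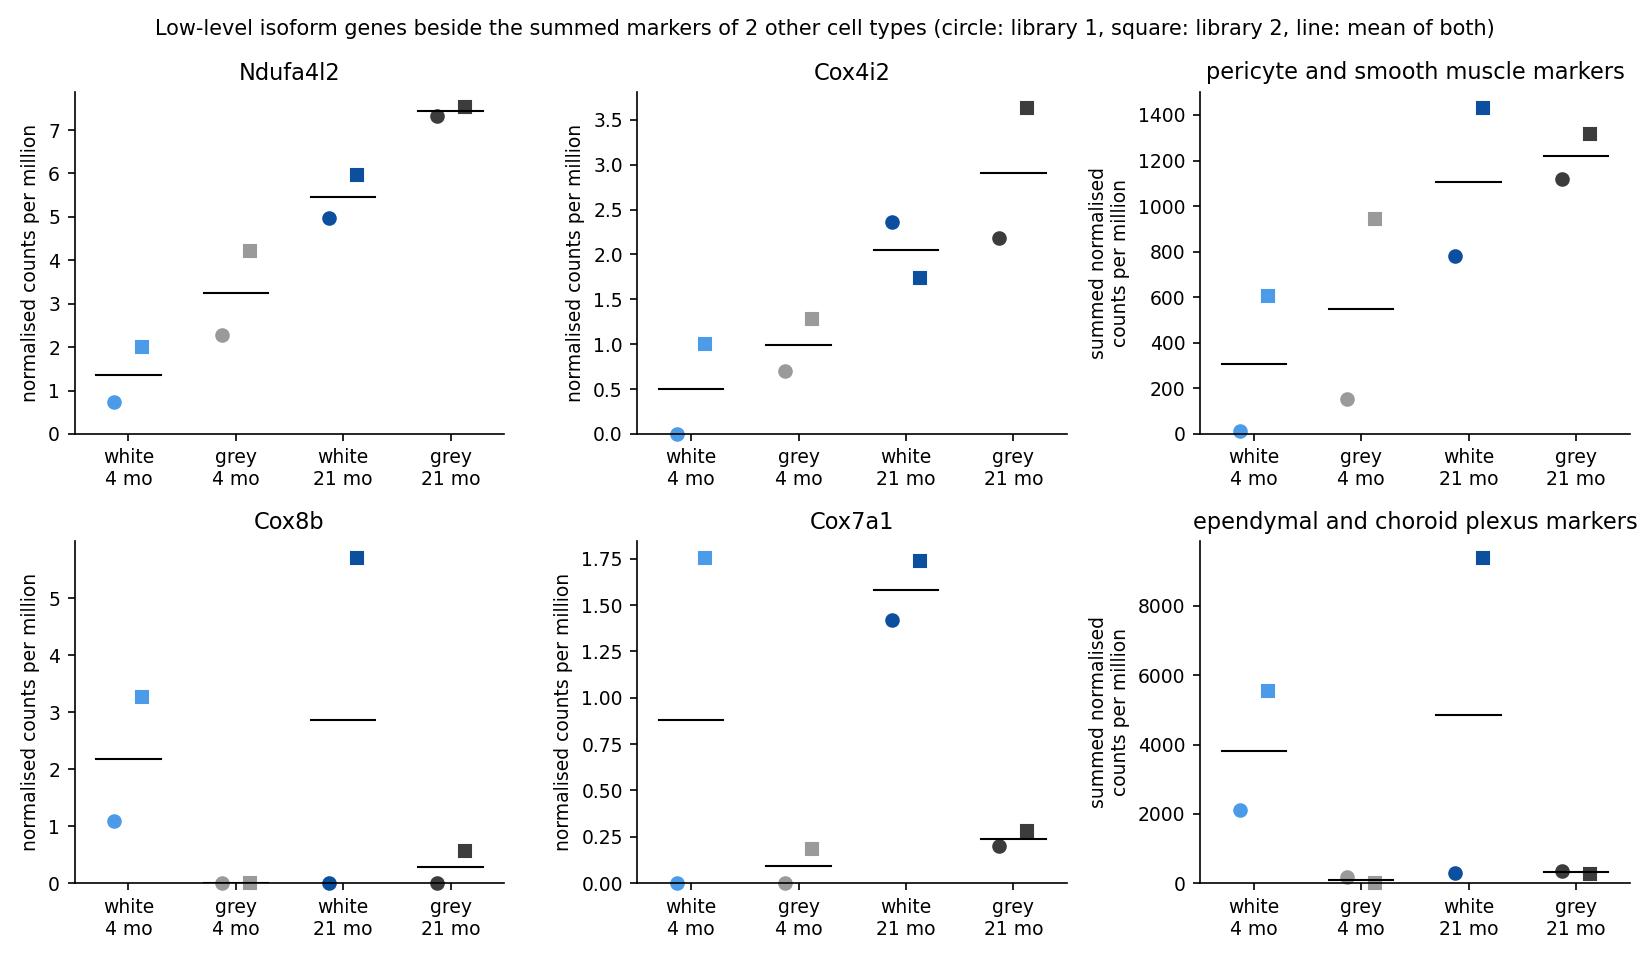
CPM of Ndufa4l2, Cox4i2, Cox8b and Cox7a1 in each library beside the summed CPM of pericyte and smooth muscle markers and of ependymal and choroid plexus markers (linear axes from 0, lines at the means). Cox8b is highest in the same 2 libraries as the choroid plexus sum, and Ndufa4l2 is lowest where the pericyte sum is lowest.

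In complex V, 1 gene lay higher in white matter at both ages without overlap. Atp5g1, 1 of 3 genes for the proton-carrying ring subunit c of the ATP synthase, was at 48.7 and 18.3 CPM in young white and 8.90 and 4.39 CPM in young grey matter. In old tissue it was at 11.1 and 21.6 against 6.73 and 10.3 CPM. On library totals alone, without the TMM factors, Atp5g1 overlapped between the old regions. In CPM, white lay above grey matter at each age without overlap, by 2.32 ± 0.67 at 4 months and 0.94 ± 0.65 at 21 months (edgeR adjusted p = 0.479 and 1), and by 1.48 ± 0.57 at 4 months without the first white matter library (adjusted p = 0.920). DESeq2 called it at 4 months, at 2.35 with an adjusted p of 0.0391, where 3.6% of the genes with an adjusted p were called.

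The other 2 genes for subunit c did not share this pattern in full. Atp5g3 was at 28.0 and 25.1 against 21.3 and 19.7 CPM at 4 months and at 15.4 and 21.1 against 15.6 and 14.5 CPM at 21 months, which overlapped. Atp5g2 overlapped at both ages, at 7.63 and 3.01 against 3.31 and 2.56 CPM and at 4.49 and 6.21 against 1.19 and 4.75 CPM. The differences between these 3 genes were not tested. In all, 6 of 89 chain genes (Atp5g1, Cox6a2, Cox6c, Ndufaf8, Ndufs3 and Ndufv3) were higher in white matter at both ages without overlap, beside 3.14% of all genes tested. Of these, Atp5g1 and Ndufs3 overlapped at 21 months on library totals alone.

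The catalytic subunits of the ATP synthase were followed next. Atp5b, the catalytic beta subunit, was at 388 and 521 against 319 and 320 CPM at 21 months, without overlap (0.50 ± 0.18 in the fit of the 21-month libraries, edgeR adjusted p = 0.284). Atp5a1, the alpha subunit beside it, was at 207 and 223 against 166 and 219 CPM, and the regions overlapped (0.15 ± 0.18, edgeR adjusted p = 0.840).

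None of the following catalytic and core subunits of complexes I to III passed the test at 21 months. Of complex I, Ndufs1, the largest iron-sulphur subunit, was at 20.1 and 32.0 against 27.5 and 24.3 CPM, and Ndufv1, which binds NADH, at 10.9 and 13.9 against 10.3 and 15.9 CPM. Both overlapped. Ndufa13, an accessory subunit also studied as GRIM-19 in cell death, had the largest difference in complex I among genes with a mean of at least 50 counts, at 26.5 and 34.3 against 13.3 and 14.8 CPM. With the 21-month libraries alone the log2 fold change was 1.10 ± 0.27 (edgeR adjusted p = 0.0848).

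Sdha, the flavoprotein of complex II that also works in the citric acid cycle, was at 116 and 141 against 96.5 and 125 CPM at 21 months and overlapped. Sdhb, its iron-sulphur partner, was at 18.7 and 19.6 against 14.7 and 15.1 CPM without overlap (0.36 ± 0.28, edgeR adjusted p = 0.738). In complex III, Uqcrc1, a core protein, was at 28.1 and 36.5 against 27.9 and 21.8 CPM without overlap, and Uqcrfs1, the Rieske iron-sulphur protein, lay the other way, at 10.6 and 11.9 against 13.5 and 13.4 CPM. On library totals alone Uqcrc1 overlapped. Cyc1, cytochrome c1, overlapped at 21.5 and 37.5 against 24.4 and 27.1 CPM.

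At 4 months the regional comparison turned on the first white matter library. In the fit of all 8 libraries 83 of 89 chain genes were higher in white matter, with a median of 0.79 beside 0.01 over all genes, and none was called (0% of genes, 1446 with an unadjusted p under 0.05, of which 4 were chain genes). By complex the medians were 0.95, 0.34, 0.95, 1.02 and 0.70 from I to V. Without that library the medians were -0.21, -0.37, -0.18, 0.00 and -0.20, 31 of 89 lay above 0, and the median over the 89 was -0.19. Without the second white matter library instead, 30 chain genes were called, all higher in white matter, where 23.6% of all genes were called, and the lone library is then assumed to vary like the other groups. Only 14 of 89 were higher without overlap, beside 13.4% of all genes, and 3 lower, beside 15.5%. The fit of the 4-month libraries alone called no gene (0%).

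Single genes followed the same course. Ndufs7, an iron-sulphur subunit of complex I, was at 83.6 CPM in the first and 9.03 CPM in the second young white matter library and at 21.1 and 15.4 CPM in young grey matter. Its difference was 1.34 ± 0.85 with and -0.99 ± 0.42 without the first white matter library (edgeR adjusted p = 0.700 and 0.920). Uqcr10, a small complex III subunit, was at 48.7 and 8.28 CPM in white and 9.07 and 7.68 CPM in grey matter (1.76 ± 0.77 with and 0.00 without that library, edgeR adjusted p = 0.565 and 1). For both genes the second white matter library lay between or below the grey matter libraries.

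**Figure D5:**
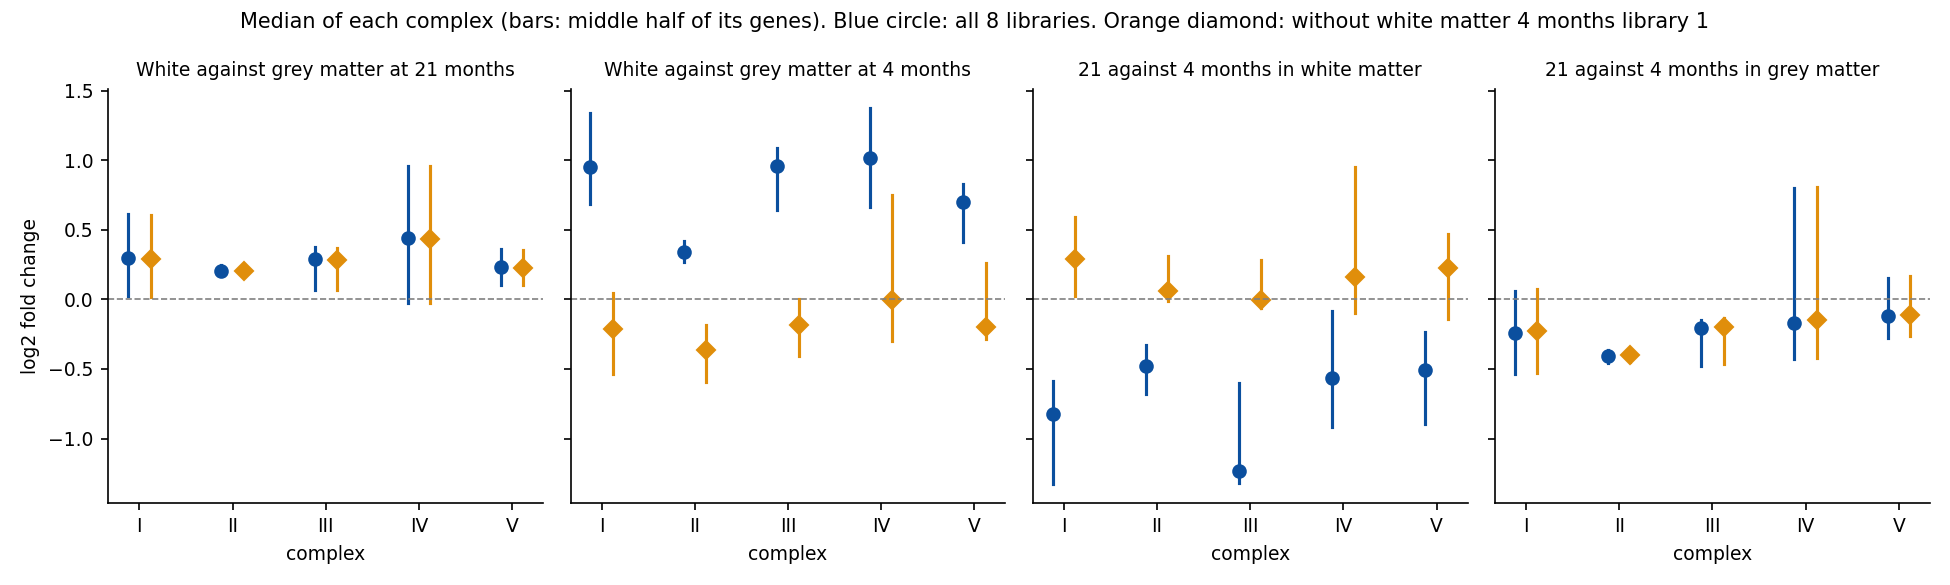
Median log2 fold change of the genes of each complex in 4 comparisons, with bars from the lower to the upper quartile, from the fit of all 8 libraries (blue circles) and without the first white matter library at 4 months (orange diamonds). The 2 settings lie close together for the comparison at 21 months and for grey matter, while the medians at 4 months and those of age in white matter move across 0 or to it.

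With age in white matter, 80 of 89 chain genes were lower at 21 than at 4 months in the fit of all 8 libraries, with a median of -0.70 beside 0.02 over all genes, and none was called (0%). The medians were -0.82, -0.48, -1.23, -0.57 and -0.51 for complexes I to V. Without the first young white matter library they were 0.29, 0.06, 0.00, 0.16 and 0.22, with 61 of 89 above 0 and a median of 0.23. Without the second one, 32 chain genes were called, all lower at 21 months, where 25.1% of all genes were called. In both young libraries set against both old ones, 11 of 89 were lower without overlap (background 15.4%) and 4 higher (background 19.8%): Cox6a2, Cox4i2, Ndufa4l2 and Cox7a2l. Cox7a2l, a factor that joins complexes III and IV, was at 71.6 and 60.0 CPM in young and 98.4 and 80.5 CPM in old white matter (0.44 ± 0.34 with and 0.57 ± 0.31 without the first young library, edgeR adjusted p = 0.715 and 1). The fit of the 4 white matter libraries alone called no gene (0%).

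The comparison of the ages within grey matter sets only grey matter libraries against each other, although all 8 libraries entered its filter, scaling and estimate of spread. The median over the 89 was -0.21 beside -0.02 over all genes, with 63 below 0 and none called, here and in the fit of the grey matter libraries alone (0% in each). The medians by complex were -0.24, -0.40, -0.21, -0.17 and -0.12. Without overlap, 22 of 89 were lower at 21 months (background 17.3%) and 11 higher (background 17.2%). Of the 36 complex I subunits among the 89, 13 were lower and 5 higher. Without the first young grey matter library, which was the higher of the 2 in all 5 complex sums, the median over the chain genes was 0.10, and without the second -0.50. Ndufb2, a small complex I subunit, had the lowest unadjusted p in the fit of all 8 libraries, at 3.84 and 5.67 CPM in young and 11.9 and 7.54 CPM in old grey matter (1.03 ± 0.50, edgeR adjusted p = 1).

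The difference between the age changes, white minus grey matter, had a median of -0.45 over the 89 with all libraries and 0.48 without the first young white matter library, and no gene was called with all libraries (0%). Without the second young white matter library 6 chain genes were called, all below 0, where 13.6% of all genes were called.

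Genes that work beside the chain were set next to it, from lists of assembly factors, electron carriers, citric acid cycle enzymes and regulators. At 21 months none of them was called in the fit of all 8 libraries. Of 16 citric acid cycle and pyruvate dehydrogenase genes, 15 were higher in white matter, with a median of 0.15. Of 19 complex IV assembly factors tested, 9 were higher, with a median of -0.09, so this list did not show the direction of the complex IV subunits. Of 6 electron carriers and entry enzymes, 5 were higher (median 0.23). Of 12 regulators of mitochondrial gene expression, 6 were higher (median 0.03). Among 78 cytosolic ribosomal protein genes, 67 were higher (median 0.30), a median above that of the 89 chain genes. The coactivator gene Ppargc1a, which drives mitochondrial biogenesis in other tissues, was at 2.91 and 14.3 CPM in young white, 4.53 and 2.01 CPM in young grey, 1.66 and 20.1 CPM in old white and 1.58 and 2.23 CPM in old grey matter, highest in the 2 libraries with the highest choroid plexus sums.

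Promoters of the chain genes were searched for short motifs, since respiratory chain genes are known targets of the factors NRF1 and the ETS family member GABP. RefSeq promoter sequences (GRCm38.p6) of the 250 bases before the start were found for 73 of the 92 genes, in 78 windows. On either strand, the NRF1 motif GCGCANGCG was in 20.5% of these windows and in 5.16% of 32851 windows of all genes. The ETS motif CCGGAAG was in 17.9% and 6.91%, and CCAAT in 42.3% and 33.8%. GAGGAAGT, a form of the motif of the myeloid factor PU.1, was in 3.85% and 2.44%. The YY1 motif AAGATGGC was in 1.28% and 1.56%, and the MEF2 motif CTAAAAATA in 0 and 0.469%. With so rare a motif, 0 matches in 78 windows says little. Cox6a2, Cox4i1 and Cox4i2 were among the genes without a window, so their promoters were not searched. A match is a description of the letters only.

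The promoters of Cox6a1 and Atp5g1 are shown as those of 2 genes whose CPM lay higher in white matter at 21 months without overlap. Cox6a1 overlapped at 4 months, and Atp5g1 at 21 months on library totals alone. Matches on either strand are in capitals. That of Cox6a1, at chr5:115348959-115349208 on the minus strand, held NRF1 matches at bases 89, 90 and 134, of which the first 2 overlap, CCAAT at 177 and an ETS match at 235, counted from its first base. That of Atp5g1, at chr11:96075632-96075881 on the minus strand, held 5 CCAAT matches, at bases 22, 125, 156, 159 and 182, of which those at 156 and 159 overlap, and no NRF1 or ETS match.
Cox6a1: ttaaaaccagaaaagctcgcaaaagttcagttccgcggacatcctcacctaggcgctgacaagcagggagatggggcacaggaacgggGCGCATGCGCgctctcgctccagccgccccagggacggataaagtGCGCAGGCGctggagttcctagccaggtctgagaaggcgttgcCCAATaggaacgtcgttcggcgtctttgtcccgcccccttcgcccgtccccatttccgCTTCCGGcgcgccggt
Atp5g1: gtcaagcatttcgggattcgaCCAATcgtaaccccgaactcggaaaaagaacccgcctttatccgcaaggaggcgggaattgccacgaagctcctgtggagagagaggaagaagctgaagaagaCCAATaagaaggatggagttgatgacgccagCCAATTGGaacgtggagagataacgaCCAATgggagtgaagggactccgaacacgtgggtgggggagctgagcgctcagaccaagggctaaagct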

How the data were processed

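Polyadenylated RNA of CD11b-selected cells was measured in 8 libraries. The authors deposited estimated counts, not all whole, and a normalised signal for 18448 genes, which in each library was the rounded count multiplied by a single factor (100% of values, tolerance 1e-06). Partek and DESeq2 are named in the submitters' processing notes, without version or role. The aligner, build, annotation and strand setting were not given in the sources used here. Reads shared between overlapping or near-identical genes may be split between them. Counts were rounded and fitted with edgeR 4.0.16 in R 4.3.3 (filterByExpr, TMM, robust quasi-likelihood test, 4 group means over all 8 libraries), with Benjamini-Hochberg adjustment over all genes tested and calls under 0.05. Log2 fold changes carry standard errors, and none is given within 0.01 of 0. Alternatives were fits of the compared libraries alone, DESeq2 1.42.0, limma 3.58.1 on the deposited signal, other scalings and filters, a replicate block and leaving out each library. The fits were tested on simulated data.

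The genes and lists were chosen with earlier results of these data known. Named were the isoform pairs, the catalytic or core subunits, genes called in any fit of all libraries, of the compared libraries or without 1 library (the 10 with the largest change where over 10), and the highest and lowest gene of each complex with a mean count of at least 50. Others are named where few lay in a count or a list is described. The values of 1 gene under this rule are not reported here. Ndufa4 was counted with complex IV. With 2 libraries a group, an exact permutation test cannot go below p = 0.333, so none was used.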

Additional observations from a re-analysis of the deposited data

How the results depend on the processing

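With the compared libraries alone, 2 chain genes were called for region at 21 months, and with voom quality weights, chosen after the data were seen, 1. DESeq2 called 1 for region at 4 months and 1 for age in white matter, and without a filter on low counts 2 were called for region at 4 months. Leaving out 1 library at a time, the median at 21 months ran from 0.11 to 0.34, that of region at 4 months from -0.19 to 1.34 (0 to 30 called), of age in white matter from -1.29 to 0.23 (0 to 32 called), of age in grey matter from -0.50 to 0.10, and of the difference between the age changes from -0.97 to 0.48 (0 to 6 called). The extremes at 4 months and in white matter came from leaving out the first or the second young white matter library. Scaling by library size alone moved the median of all genes by over 0.1, to -0.18 for region at 4 months and 0.29 for age in white matter, where the chain genes had 0.38 and -0.21.

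With a replicate block, 0 chain genes were called in all 5 comparisons and the median at 21 months was 0.24. Deviations of same-numbered libraries correlated from -0.15 to 0.40 over 6 pairs of groups, over 0.1 in 2, so the numbers were not taken to pair samples. The fit of the compared libraries alone was not run for the difference between the age changes. Of 4186 values of the 51 named genes under alternatives, 53 passed the threshold where the fit of all libraries did not. The isoform genes Cox4i2, Cox7a1 and Cox8b had at most 23 counts in any library, which limits the precision of their fold changes.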
